A study of Caenorhabditis elegans with 2 samples.

Results

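The genes described here are 46 protein-coding genes of Caenorhabditis elegans that act in Wnt, Notch, TGF-beta and Ras signalling, out of 19973 nuclear protein-coding genes. They were taken from a fixed list of names, and all 46 were found in the annotation: 20 for Wnt, 7 for Notch, 11 for TGF-beta and 8 for Ras. The study mapped by chromatin immunoprecipitation where NFYA-1, a subunit of the CCAAT-binding complex NF-Y, sat on the genome. The material was whole hermaphrodite late embryos of strain OP404, genotype unc-119(tm4063) III; wgIs404, which stably expresses NFYA-1 with a GFP-FLAG tag at its C terminus, and the labels' description names anti-GFP for the precipitation, while their antibody field names nfya-1. The 2 biological replicates form a single group, both carry the transgene, and an untagged strain was not analysed here. Whole embryos mix all tissues, so binding in a few cells and weak binding in many cannot be told apart.

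In Wnt signalling a secreted ligand binds a Frizzled receptor, and beta-catenins then act with the TCF factor POP-1. In Notch signalling a membrane-bound ligand causes cleavage of the receptor, whose inner part joins the DNA-binding protein LAG-1. TGF-beta ligands act through receptor kinases and Smad proteins, and the Ras pathway passes a signal from the EGF receptor LET-23 through Ras, Raf, MEK and ERK kinases. In the worm embryo and larva these pathways set cell fates, the orientation of divisions, body size and entry into the dauer stage. NF-Y is known for binding CCAAT boxes near the starts of many genes.

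The peak list, the regions that passed the authors' reproducibility threshold, held 4098 regions in genome build ce11, 4084 of them on the 6 nuclear chromosomes. Each peak has a summit and a signal, the caller's enrichment value on a scale that the sources used here do not state. Nuclear peaks had a median signal of 109 and a highest of 9543, and rank 1 is the highest signal. Lists called per replicate held 21476 regions for replicate 1 and 28596 for replicate 2, background regions included, and were used for ranks. Read depth is unknown, because the lists hold no read counts.

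Most of the signalling genes had no NFYA-1 summit at the promoter, taken as 500 bp upstream to 100 bp downstream of any coding transcript start. A summit lay there in 4 of the 46 genes, against 11.2% of all coding genes: the Wnt genes mig-14, lit-1 and sys-1 and the Notch gene sup-17. The share of the 46, 8.70%, was close to the share of all genes. By pathway the counts were 3 of 20 for Wnt, 1 of 7 for Notch, 0 of 11 for TGF-beta and 0 of 8 for Ras. A rough upper limit for a count of 0 is 3 divided by the number of genes. That gives 27.3% for TGF-beta and 37.5% for Ras. It reads the genes as a sample, which a chosen list is not.

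The promoter count depended on the rule, most of all on the list. With the longer pooled list of 15515 regions, background included, 17 of the 46 genes had a promoter region (37.0%), against 23.7% of all coding genes. Within the peak list, a window of 250 bp upstream and 50 bp downstream left mig-14 and lit-1, 2 of 46 genes against 7.28% of all coding genes, and one of 1000 bp and 200 bp gave 5 genes, with sma-9, against 14.1%. Giving each summit to its nearest start alone gave 4 genes against 8.87%, and any part of the peak in the window gave 4 against 12.5%. The upper 50% of peaks by signal gave 3 genes, without sup-17, against 5.68%. The 4098 strongest regions of replicate 2 alone gave 5 genes against 11.4%, and those of replicate 1 alone gave 5 against 10.5%.

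The same genes had summits more often than all genes further upstream and inside the gene. Upstream of the promoter window, to 2 kb from a start, 9 of 46 genes had a summit (19.6%), against 7.65% of all coding genes. In the rest of the gene, outside any promoter window, 10 of 46 had one (21.7%), against 4.17%, and in 9 of these 10 a summit lay in an intron, against 3.78% of all coding genes. From 2 kb upstream through the gene, 21 of 46 had at least 1 summit (45.7%), against 20.5% of all coding genes. These 21 genes held 29 peaks, with 17 genes holding 1 peak and sma-9 holding 4. That count was 21 with any part of the peak counted (against 21.6%), 13 in the upper 50% of peaks (against 11.4%) and 36 with the longer pooled list (against 46.2%). It was 20 with replicate 2 alone (against 20.7%) and 21 with replicate 1 alone (against 20%). No test was made of these shares, since the list was chosen with earlier results known.

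The signalling genes are long, and their upstream regions are wide. Their median length was 5.33 kb against 2.03 kb for all coding genes, and the median distance from the 5′-most start to the next coding gene upstream was 3.23 kb against 0.939 kb. At least 2 coding starts were annotated for 54.3% of them, against 26.3% of all coding genes. A summit at any start counted, and the part of this in the shares was not tested. Among genes at least as long as the median of the 46, summits outside promoters lay in 8 of 23 signalling genes (34.8%) and in 18.7% of 2911 coding genes. Among genes with at least 2 kb free upstream, 7 of 32 signalling genes (21.9%) and 8.16% of 6310 coding genes had an upstream summit. Both cuts set only a lower limit, so length and upstream space above it were not matched. The part of length and upstream space in the shares was not tested.

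**Figure D1:**
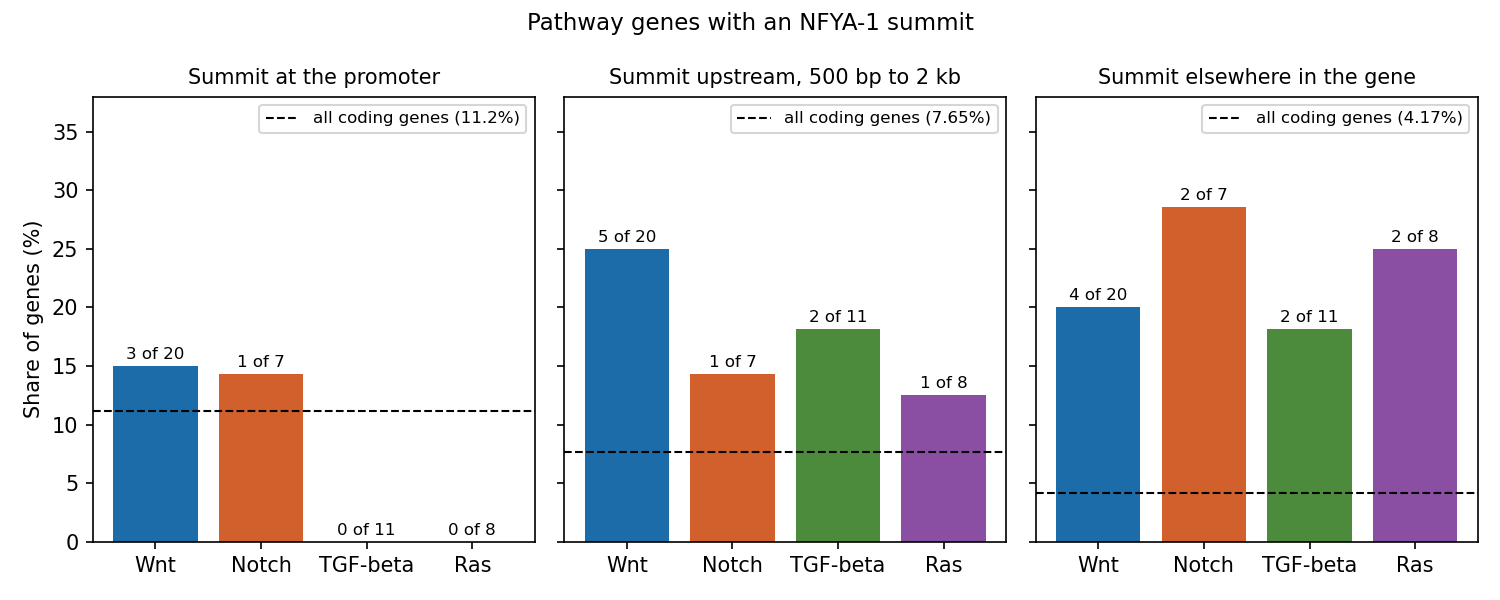
Share of the genes of each pathway, in percent, with an NFYA-1 summit at the promoter (left), upstream between 500 bp and 2 kb of a start (middle) and elsewhere in the gene (right). Bars carry the count of genes and dashed lines give the share of all 19973 coding genes: at the promoter the Wnt and Notch bars lie above the line of 11.2% and TGF-beta and Ras are at 0, and all other bars lie above the lines of 7.65% and 4.17%.

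The sequences shown next are those under mig-14, lag-1, daf-14 and mpk-1, plus that of the Smad gene sma-3, chosen after its values were seen. The first 4 are the strongest promoter or intron summit of their pathways among those that could be shown, which leaves out the stronger mek-2 of the Ras pathway. Each is 101 bases of WBcel235 from the RefSeq copy, 50 bp to each side of the summit, read 5′ to 3′ on the strand stated. In the windows of mig-14 (II:13741601-13741701, minus strand) and sma-3 (III:6865050-6865150, plus strand) capitals mark CCAAT or its reverse complement ATTGG.
mig-14: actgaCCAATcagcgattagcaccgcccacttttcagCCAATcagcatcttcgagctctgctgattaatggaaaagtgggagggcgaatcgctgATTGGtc
sma-3: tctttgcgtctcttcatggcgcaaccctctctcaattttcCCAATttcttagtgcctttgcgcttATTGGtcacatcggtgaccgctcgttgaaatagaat
The windows of lag-1 (IV:6097205-6097305, plus strand), daf-14 (IV:10252542-10252642, plus strand) and mpk-1 (III:4223767-4223867, minus strand), all in introns, hold no CCAAT, and capitals mark CTCTC.
lag-1: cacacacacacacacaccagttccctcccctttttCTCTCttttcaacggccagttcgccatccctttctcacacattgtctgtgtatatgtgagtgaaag
daf-14: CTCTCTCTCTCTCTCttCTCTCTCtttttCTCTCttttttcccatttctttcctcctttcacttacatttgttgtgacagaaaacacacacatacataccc
mpk-1: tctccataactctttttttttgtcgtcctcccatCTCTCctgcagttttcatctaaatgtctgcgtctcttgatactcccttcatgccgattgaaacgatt
The mig-14 window holds 3 CCAAT boxes, and that of sma-3 holds 2 on opposite strands. The daf-14 window opens with a CT repeat that holds most of its 9 overlapping CTCTC matches.

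The strongest peak of all 46 genes was at mig-14 (WBGene00003246, II:13741738 to 13749983), which encodes the Wntless protein that Wnt-producing cells need to secrete their ligands. Its summit lay 87 bp upstream of its only coding start, with a signal of 615 and rank 59 of 4098. The signal was 340 in the list of replicate 1 and 281 in that of replicate 2, and the peak ranked 53 and 66, so it stood near the top of both lists. No other coding gene had this summit in its promoter window.

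The ligands themselves had no summit. None of the 5 Wnt ligand genes lin-44, egl-20, cwn-1, cwn-2 and mom-2 had a summit from 2 kb upstream through the gene, and the nearest summits lay 3.36 kb (mom-2) to 37.8 kb (egl-20) from a start. Of the 4 Frizzled receptor genes, lin-17 and mom-5 had a summit and mig-1 and cfz-2 had none. The lin-17 peak, with a signal of 59.2, was near the lower end of the list and lay in intron 4 of 9. It ranked 3725 and 4315 in replicates 1 and 2. The mom-5 peak (signal 68.2) lay in the 3′ UTR, 4001 bp from a mom-5 start and slightly closer to one of tsp-7, 3596 bp away. The nearest summit to mig-1, 74.5 kb away, was the farthest for any of the 46 genes.

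Among the 4 beta-catenin genes, sys-1 had summits at its promoter. SYS-1 is the beta-catenin that acts as a coactivator of POP-1 in asymmetric divisions. Its summits lay 274 bp and 485 bp upstream of the gene (WBGene00006379, I:9980063 to 9984794), 211 bp apart, so the regions overlap. The nearer had a signal of 172 and ranked 872 and 1491 in replicates 1 and 2. The farther had a signal of 58.4 and rank 4084, just inside the list. The wrm-1 peak lay 1005 bp upstream (signal 59.7), with ranks 3324 and 7728 in the replicates. The hmp-2 peak, 1364 bp upstream, was the second strongest of the Wnt genes with a signal of 320 and ranks 419 and 225, but its summit lay 184 bp from a start of K05C4.7, in the promoter of that gene. HMP-2 is the beta-catenin of cell junctions. The gene bar-1, for the beta-catenin of canonical Wnt signalling, had none, its nearest summit being 11.2 kb away.

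Downstream in the pathway, the TCF gene pop-1 had a summit 1246 bp upstream (signal 134, ranks 1250 and 1693). The Axin gene pry-1 had one 1884 bp upstream (signal 78.8), and the APC-related gene apr-1 had none, its nearest summit being 21.2 kb away. All 3 kinase genes had a summit. That of the casein kinase gene kin-19 lay 1195 bp upstream (signal 135), and that of gsk-3 lay in the last intron (signal 184, rank 914 in both replicates). The gsk-3 summit was closer to a start of nhx-8, 1561 bp away, than to that of gsk-3, 4887 bp away.

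The gene lit-1 (WBGene00003048, III:13701991 to 13724404), for a Nemo-like kinase that phosphorylates POP-1, held 3 summits. It has 7 annotated starts, and the promoter summit lay within the gene, 15728 bp from the 5′-most start and 246 bp upstream of an internal one. Its signal was 164, with ranks 1242 and 1068 in replicates 1 and 2. The other summits lay in intron 2, which is 12325 bp long, with signals of 157 and 124. The former ranked 2178 in replicate 1 and 669 in replicate 2, and the latter 1891 and 1601.

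Of the Notch genes, the ligand genes lag-2 and apx-1 had no summit, their nearest being 7.65 kb and 14.2 kb away. The receptor gene lin-12 (WBGene00003001, III:9060221 to 9071472) had one 1186 bp upstream, with a signal of 84.0 and ranks 3623 and 2849. The related receptor gene glp-1 had none, and the nearest summit, 2.60 kb upstream, lay at the shared promoter of mccc-2 and mrpl-44. The gene sup-17, for an ADAM protease that cleaves the receptors, had a summit 460 bp upstream, near the edge of the window (signal 88.2, ranks 2252 and 2626). An annotated noncoding RNA gene lay within 200 bp of the sup-17 summit, and likewise for those of pop-1, gsk-3 and let-60.

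Both nuclear factors of the Notch pathway had summits inside the gene. The peak of lag-1 (WBGene00002245, IV:6095407 to 6110655) lay in intron 1, which is 5917 bp long, with a signal of 164 and ranks 926 and 1399. The gene sel-8 (WBGene00004765, III:3612951 to 3627142), for a Mastermind-like coactivator that joins LAG-1, held 3 peaks. The strongest (signal 171, ranks 1420 and 781) lay in the 3′ UTR. The others lay in intron 1, which is 8533 bp long, with signals of 87.2 and 69.8. They ranked 2115 and 4619 in replicate 1 and 4347 and 2937 in replicate 2, so the replicates ordered them differently.

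In the TGF-beta pathways the ligand genes dbl-1 and daf-7 and the receptor genes sma-6, daf-1 and daf-4 had no summit, the nearest lying 3.70 kb (daf-4) to 27.2 kb (dbl-1) from a start. DBL-1 sets body size and DAF-7 controls entry into the dauer stage. Of the 5 Smad genes, sma-3 and daf-14 had a summit, and sma-2, sma-4 and daf-8 had none. The sma-3 summit lay 1132 bp upstream (signal 99.7, ranks 1890 and 3049). The daf-14 summit (WBGene00000910, IV:10250627 to 10255852) lay in intron 1, 1074 bp upstream of an internal start, with a signal of 137 and ranks 1613 and 1550. That is the strongest peak of the 11 genes.

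The gene sma-9 (WBGene00004862, X:10769282 to 10782973), for a Schnurri-like zinc finger factor that acts with the Smads, held the most peaks. One summit lay 1179 bp upstream (signal 74.1) and 3 lay in intron 1, which is 3728 bp long, with signals of 92.0, 87.5 and 59.8. The weakest ranked 3143 in replicate 1 and 10106 in replicate 2, the lowest rank of any of the 29 peaks in either list. The other sma-9 peaks ranked between 2005 and 3481 in both lists.

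In the Ras pathway the EGF-like ligand gene lin-3 and the receptor gene let-23 had no summit, nor did the adaptor gene sem-5, the Raf gene lin-45 and the ETS factor gene lin-1. In the strongest regions of replicate 2 alone, sem-5 and lin-45 each had one, which made 5 of 8 genes from 2 kb upstream through the gene in place of 3. A summit lay 1405 bp upstream of the Ras gene let-60 (signal 205, ranks 990 and 586), slightly closer to a start of ZK792.12, 1300 bp away. The MEK gene mek-2 (WBGene00003186, I:3005403 to 3013448) had the strongest peak inside any of the 46 genes, in intron 5 of 6, with a signal of 427 and rank 140. In the lists of replicates 1 and 2 its signal was 199 and 227 and its rank 216 and 109. The coding start nearest to the mek-2 summit was that of col-48, 2544 bp away, against 5308 bp for mek-2. The ERK gene mpk-1 (WBGene00003401, III:4216763 to 4228108) had a peak in intron 1, which is 8247 bp long, with a signal of 259 and ranks 436 and 560. The 3 Ras pathway peaks thus had signals of 205 to 427, all above the median of 109 over nuclear peaks.

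**Figure D2:**
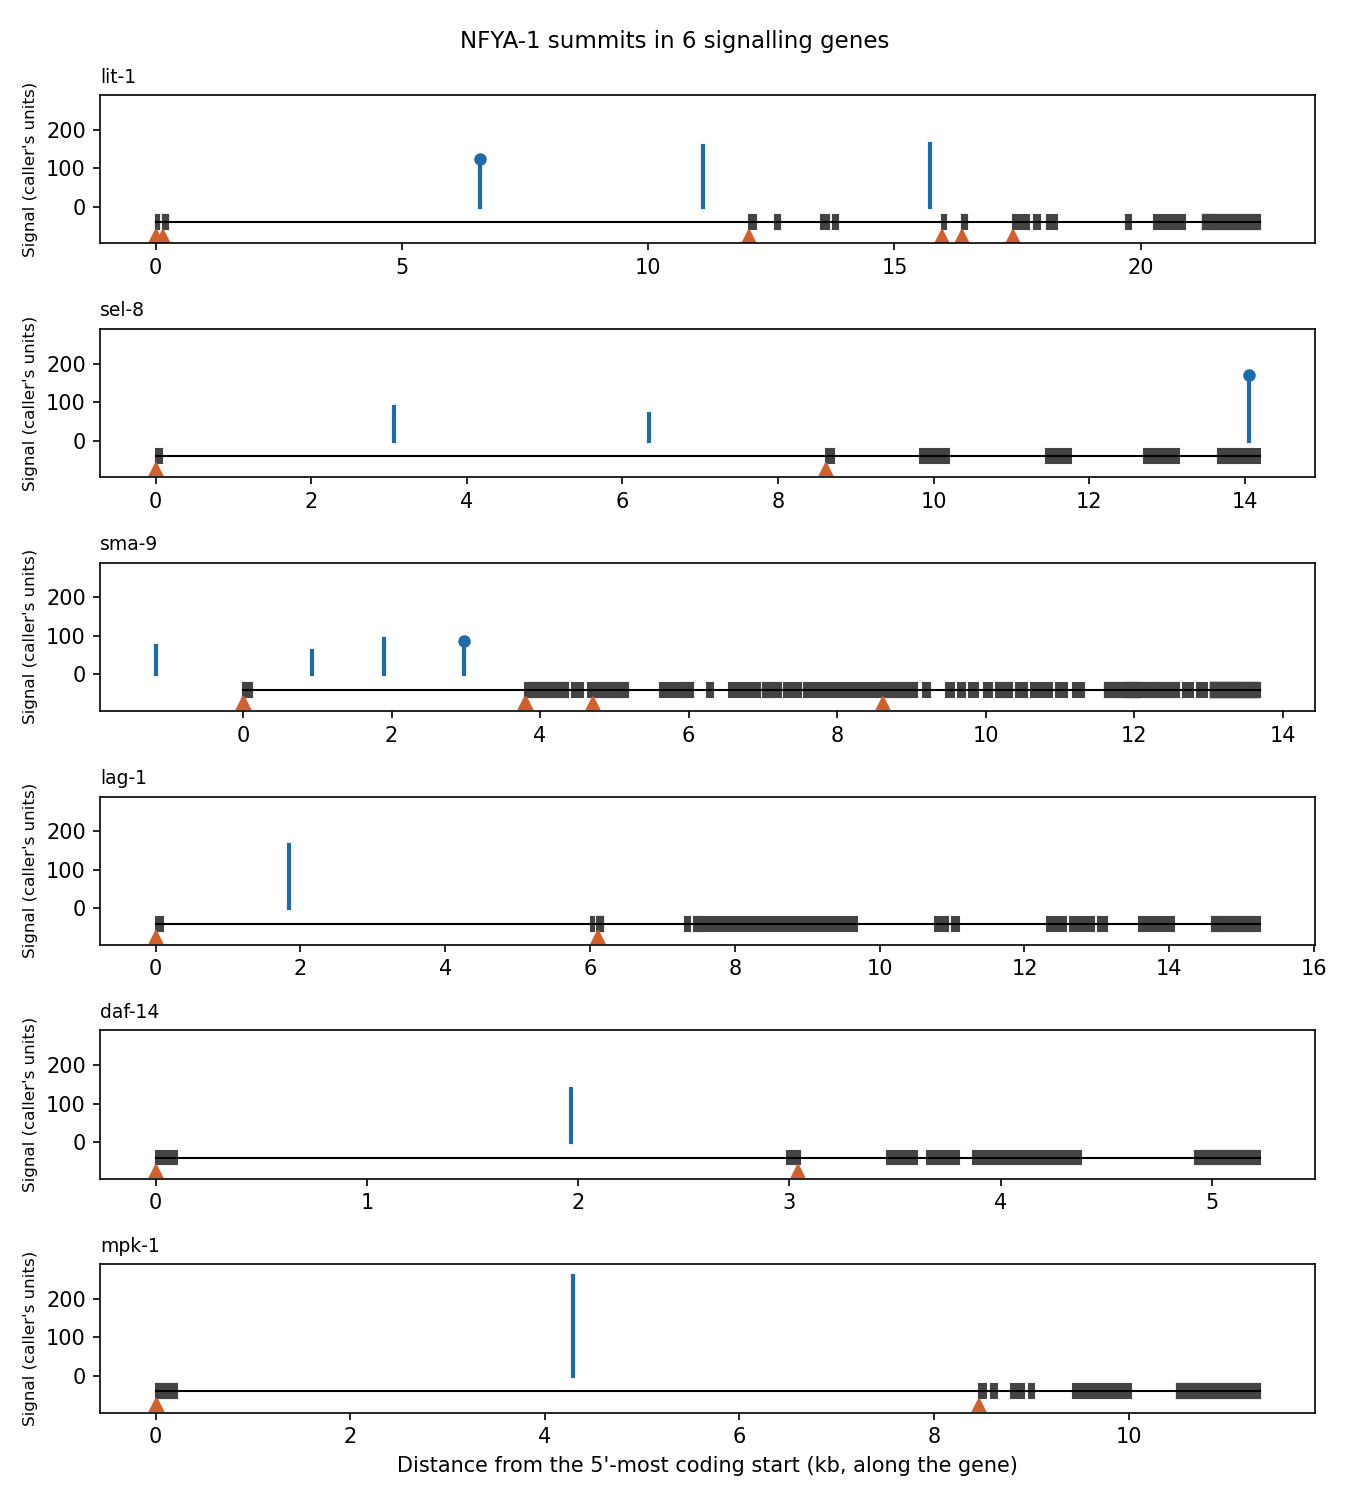
Summits in 6 genes with peaks inside the gene, by distance from the 5′-most coding start in kb (x axis) and signal in the caller's units (y axis). Blue lines are summits, with a dot where CCAAT lies within 50 bp, black boxes are exons of coding transcripts, and orange triangles are coding starts; the summits of lag-1, daf-14, mpk-1 and most of sma-9 fall in the first intron.

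Of the 13 summits in introns outside promoter windows, 8 lay in intron 1 of the longest transcript that holds them, in the genes lag-1, sel-8, sma-9, daf-14 and mpk-1. That is 61.5%, against 29.7% of the 987 such summits over all coding genes; 5 of the 8 lay in sma-9 and sel-8, and intron lengths were not taken into account. The other 2 summits inside genes lay in 3′ UTRs.

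The genes were also sorted by role over the pathways. Summits from 2 kb upstream through the gene were found in 0 of 10 ligand genes and 3 of 10 receptor genes. They were found in 18 of 26 genes for secretion, the protease, and proteins inside the cell, against 20.5% of all coding genes. For the count of 0, the rough limit used above is 30%. With the longer pooled list, 36 of the 46 genes had a region there, against 46.2% of all coding genes. The ligand genes lin-44, cwn-1, apx-1 and lin-3 were among them, and the other ligand genes were not. Outside the 46, the ligand gene tig-2 had a promoter summit, as given below. The ligand genes had a median length of 2.53 kb, the receptor genes 7.32 kb and the others 5.74 kb. Their median distances to the next coding gene upstream were 2.66 kb, 4.16 kb and 3.16 kb. The part of length and spacing in the difference between roles was not tested, nor was the difference itself.

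The 25 genes with no summit lay 2.60 kb to 74.5 kb from the nearest one, with a median of 10.1 kb. Of the 42 without a promoter summit, 13 had a region of the longer pooled list in the promoter window. Among all 17740 coding genes without a promoter summit, 14.1% had such a region. The lowest peak of the peak list had a signal of 58.2. The regions nearest below it were those of lin-45 (signal 54.6, rank 4408), lin-44 (51.3, rank 4709), cwn-1 (50.6, rank 4775) and daf-1 (48.2, rank 5020). Of the 13, 6 were TGF-beta genes and 5 were Wnt genes. The regions of sma-2, sma-3, sma-4, daf-4 and daf-8 had signals of 25.1 to 41.6.

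All 29 peaks had their summit within a region of both replicates' lists, as did 98.6% of nuclear peaks. By the stricter measure of a summit within 100 bp among the 4098 strongest regions, 27 were found in replicate 1, 22 in replicate 2 and 20 in both (69.0%, against 77.4% of nuclear peaks). Those found in both included mig-14, lit-1 at its promoter, mek-2 and mpk-1. Across the 29 peaks the ranks of the replicates had a Spearman rho of 0.818, and across 4027 nuclear peaks 0.774. These are descriptions across peaks, and the peak list was made from both replicates.

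**Figure D3:**
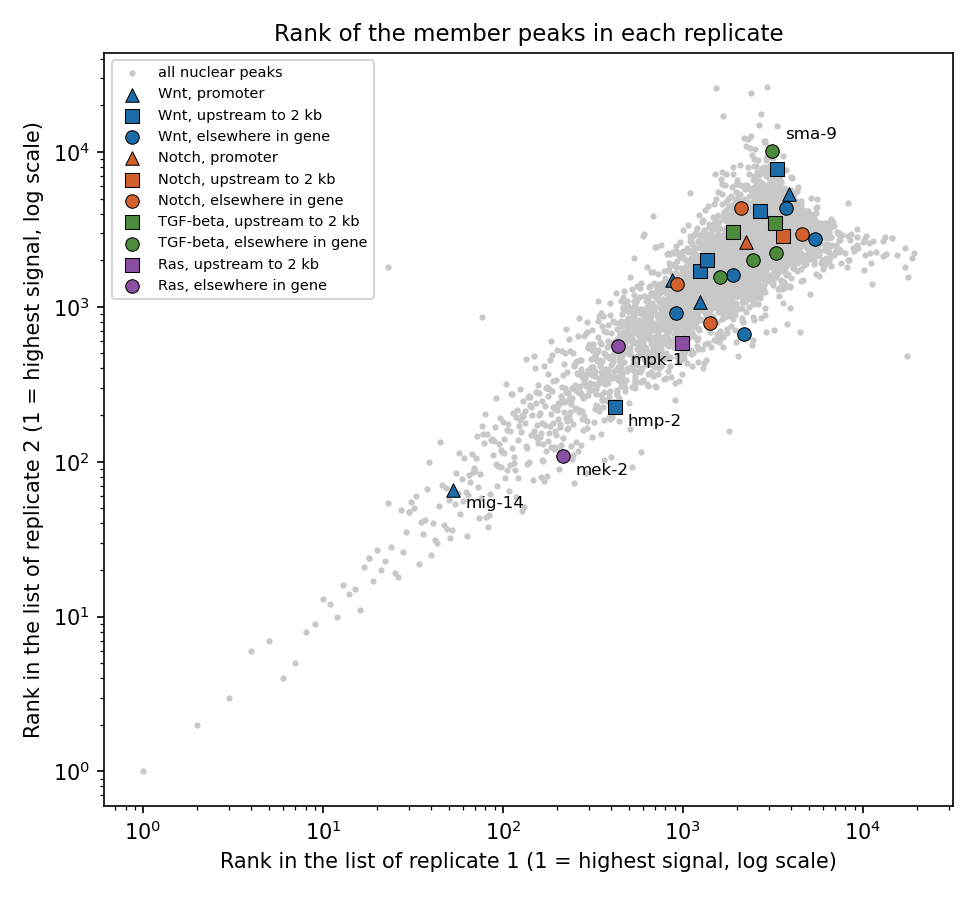
Rank of each peak in the list of replicate 1 (x axis) and of replicate 2 (y axis), both on log scales, with rank 1 the highest signal. Grey points are nuclear peaks and coloured points are the 29 peaks of signalling genes by pathway and place; mig-14 lies at 53 and 66, and the weakest sma-9 peak at 3143 and 10106.

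CCAAT, on either strand and at most 50 bp from the summit, stood in 11 of the 29 peaks (37.9%) and in 32.9% of nuclear peaks. It stood in 1 of the 5 promoter peaks, that of mig-14, against 20.4% of all peaks at coding promoters. Away from the promoter windows of the signalling genes it stood in 4 of 9 upstream peaks and 6 of 15 peaks elsewhere in the gene, against 42.8% of nuclear peaks away from coding promoters. The upstream peak of hmp-2, without CCAAT, lay in the promoter window of K05C4.7 and so belongs to the peaks at coding promoters. CTCTC, searched likewise, stood in 17 of the 29 (58.6%, against 44.7% of nuclear peaks) and CGCGC in 3 of 29 (10.3%, against 24.6%). These motifs were picked from earlier results of these data. The median GC content of the windows was 48.5% for the 29 and for all nuclear peaks.

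**Figure D4:**
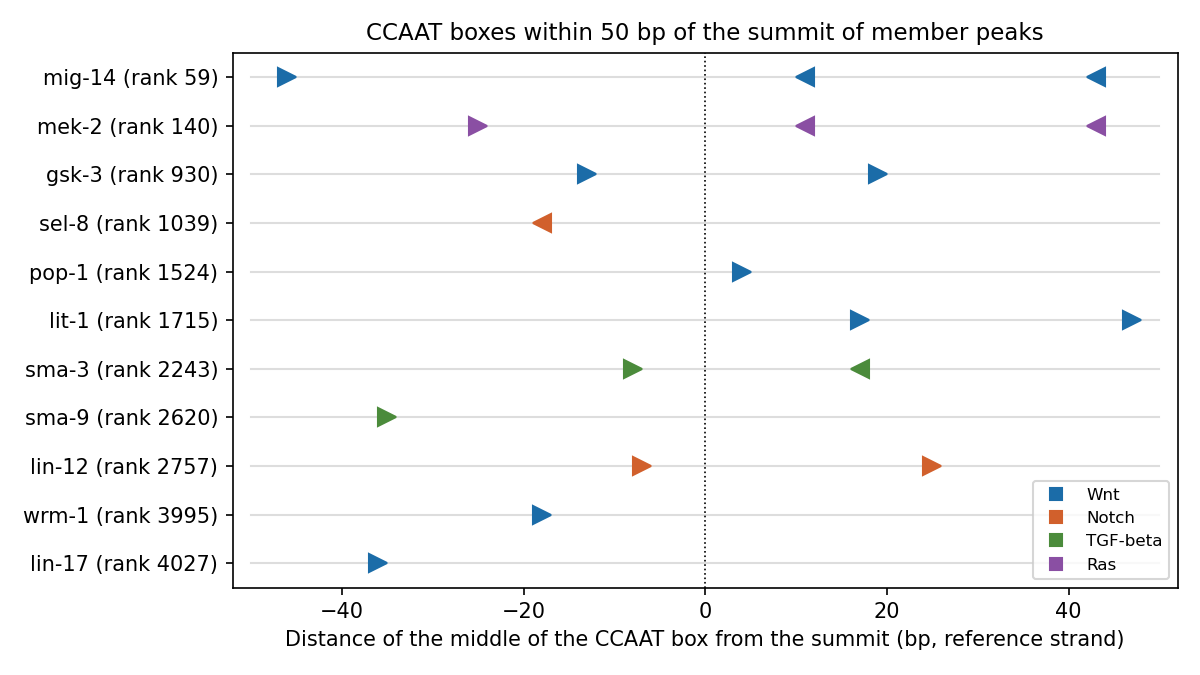
CCAAT boxes within 50 bp of the summit in the 11 peaks that hold one, ordered by rank, with the distance of the middle of the box from the summit in bp on the x axis. Triangles point right for CCAAT on the reference strand and left for the other strand; boxes 32 bp apart on 1 strand are seen in mig-14, mek-2, gsk-3 and lin-12, and 30 bp apart in lit-1.

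A pair of CCAAT boxes on the same strand, starting 32 bp apart, recurred in peaks of different pathways. Within 100 bp of the summit it was found in 5 of the 29 peaks (17.2%), those of mig-14, gsk-3, lin-12, sel-8 and mek-2, against 7.30% of nuclear peaks. For sel-8 it was the peak in the 3′ UTR. The strongest promoter peak, the strongest peak inside a gene and the strongest Notch peak all held it. The strong peaks of hmp-2 (signal 320), mpk-1 (259) and let-60 (205) did not, nor did any of the 6 TGF-beta peaks. The lin-12 peak that held it was weak, with a signal of 84.0 and rank 2757. Only 1.21% of peaks at coding promoters and 12.1% of the other nuclear peaks held the pair. Of the 29, it was held by 1 of 5 promoter peaks, 1 of 9 upstream peaks (11.1%) and 3 of 15 elsewhere in the gene (20%). The share of 7.30% mixes both kinds of place, while most of the 29 lay outside the promoter windows of the signalling genes. Boxes 30 bp apart were found in 1 of the 29, in lit-1, and in 0.245% of nuclear peaks.

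The stretches from box to box are shown for mig-14 (II:13741660-13741696, minus strand), lin-12 (III:9072649-9072685, plus strand) and lit-1 (III:13708584-13708618, plus strand), to compare the bases between the boxes. The gene sos-1, for a Ras exchange factor from the wider list described below and singled out after its values were seen, held the pair in 2 intron peaks, at V:4540051-4540087 (first) and V:4547040-4547076 (second), both on the minus strand. Capitals mark CCAAT.
mig-14: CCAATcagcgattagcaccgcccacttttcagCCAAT
lin-12: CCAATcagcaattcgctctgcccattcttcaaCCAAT
sos-1, first: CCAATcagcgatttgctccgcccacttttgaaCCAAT
sos-1, second: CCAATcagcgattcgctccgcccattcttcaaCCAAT
lit-1: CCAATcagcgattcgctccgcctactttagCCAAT
The stretches open alike, with the first box followed by cagc in all 5, and lit-1 is shorter by the bases its narrower spacing leaves out. Among the 5 signalling gene peaks with the 32-bp spacing, pairs of copies shared 20 to 24 of the 27 bases between the boxes, and 17 of the 27 were the same in all. In the 40 bases outside the boxes, 20 to each side, pairs shared 11 to 30. The pair was known from earlier results of these data.

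Other genes of the 4 pathways were read from a wider list of 60 names, all of which matched. A promoter summit lay in 14 of them (23.3%, against 11.2% of all coding genes): 4 of 15 for Wnt, 2 of 13 for Notch, 1 of 10 for TGF-beta and 7 of 22 for Ras. From 2 kb upstream through the gene the count was 28 of 60, against 20.5% of all coding genes. In the Wnt pathway the Dishevelled genes dsh-2 (signal 92.1) and mig-5 (337) had a promoter summit, that of mig-5 shared with the chaperonin gene cct-1, as did tap-1 (80.5, shared with C44H4.4) and the planar polarity gene vang-1 (139). In the Notch pathway they were sel-10, for an F-box protein that acts on the receptors (77.4), and the epsin gene epn-1 (299), whose summit lay outside the regions of replicate 2 but within 100 bp of the summit of one of its 4098 strongest. For TGF-beta it was the ligand gene tig-2 (74.5).

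The 7 Ras genes of the wider list with a promoter summit were the leucine-rich repeat scaffold gene soc-2 (signal 128), the forkhead gene lin-31 (125), the Mediator subunit gene sur-2 (98.3), lin-25 (61.5), which acts with it, eor-1 (99.6) and eor-2 (194), and lin-7 (305), which helps to place LET-23 in the membrane. The lin-7 summit was shared with elof-1 and Y54G11A.17. The stronger sos-1 summit, in an intron, had a signal of 683 and rank 46, above that of mig-14. It ranked 63 and 33 in replicates 1 and 2, and the second sos-1 summit with the pair, signal 276, ranked 545 and 360.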

How the data were processed

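NFYA-1-GFP binding was measured in 2 biological replicates of 1 group. The authors deposited narrowPeak lists in ce11, which matches the WBcel235 reference: per the listings deposited with them, lists of peaks and background regions per replicate and on pooled replicates, and 1 list past a reproducibility threshold (IDR). The deposited signal value ranks regions within 1 list, and the replicates were compared by rank. Replicate signals of mig-14 and mek-2 are printed as description only. Signals of regions in the longer pooled list were set beside the lowest signal of the peak list. The deposited −log10 q-value was not used. The sources used here state no aligner, caller or threshold, and lists in ce10, control reads and signal tracks were not used here. Depth per sample is unknown.

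Summits (1-based) were placed against 29314 starts of protein-coding transcripts of Ensembl release 115 with Python 3.11.15 and numpy 2.4.6; the 14 mitochondrial peaks were left out. A summit counted once per gene, first as promoter, then as elsewhere in the gene, then as upstream to 2 kb. On simulated data, all summits placed at promoters, upstream and inside genes were recovered. They were placed by the same window definitions, so this checks the code alone, and upstream ones counted as recovered in any class. The members, lists and motifs were chosen with earlier results of these data known, so shares are set beside those of all coding genes and no test was made. Text names all members, and of the wider list those with a promoter summit; exceptions are stated. Printed sequences leave out chromosome I and 3′ UTRs. Alternatives changed the promoter window, the list, the gene assignment, the overlap that counts (1 bp) and the box window.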

Additional observations from a re-analysis of the deposited data

How the results depend on the processing

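The count of 4 genes with a promoter summit fell to 2 in the narrower window of 250 bp and 50 bp, which sys-1 and sup-17 left (Notch 0), and rose to 17 with the whole pooled list (Wnt 8, Notch 2, TGF-beta 6, Ras 1). In the upper 50% of peaks by signal the Notch count was 0, and the count from 2 kb upstream through the gene was 13 in place of 21; with the pooled list that count was 36. In the window of 1000 bp and 200 bp, sma-9 entered (TGF-beta 1). With 1 replicate's strongest 4098 regions the promoter count was 5 in each case: mig-14, lit-1, sys-1 and sup-17 were kept, with lin-45 added without replicate 1 (Ras 0 to 1) and daf-1 added without replicate 2 (TGF-beta 0 to 1). Without replicate 1 or 2, 20 and 21 genes had a summit from 2 kb upstream through the gene. Without replicate 1, Ras rose from 3 to 5 (sem-5, lin-45) and Wnt fell from 11 to 8 (lin-17, wrm-1 and pry-1 lost); without replicate 2, Wnt was 10 and TGF-beta 4. No paired analysis was possible because there was 1 group. The number of reads behind a weak peak is unknown, so a gene without a peak is not shown to be unbound.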
